A study of Mus musculus with 3 samples.

Results

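The 8 genes described here encode the IL-6 and IL-12 family cytokines of the mouse: Il6, Lif and Osm, which are ligands of the IL-6 family, and Il12a, Il12b, Il23a, Il27 and Ebi3, which are chains of the IL-12 family. They were chosen by gene symbol, and all 8 of 8 were found, among 55536 annotated genes, in the tables of every library, with 21 annotated transcripts between them. The single group comprised primary macrophages of strain C57BL/6J, grown from bone marrow and exposed to Lipid A at 100 ng/ml for 40 min, from which the chromatin fraction was isolated and its ribo-depleted total RNA sequenced. It held 3 biological replicates, with an RNA input of 1 µg in replicate 1, 250 ng in replicate 2 and 500 ng in replicate 3, and the labels give 1 donor entry for all of them and neither the age nor the sex of the mice. No allele, transgene or agent other than Lipid A is named. Untreated cells were not analysed here. Levels were therefore set against other genes of the same library and between libraries, and nothing in them measures induction.

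Lipid A, the membrane anchor of bacterial endotoxin, is bound by Toll-like receptor 4, which signals to NF-κB, AP-1 and interferon regulatory factors. RNA on chromatin is rich in transcripts still being made or spliced. IL-6, LIF and oncostatin M signal through the shared receptor chain gp130 and the kinases Jak1, Jak2 and Tyk2 to Stat3. IL-12 family cytokines are pairs of chains: the p40 chain (Il12b) pairs with p35 (Il12a) in IL-12 and with p19 (Il23a) in IL-23, and EBI3 pairs with p28 (Il27) in IL-27. In mouse macrophages Il6 and Il12b are known as secondary response genes, which need the IκBζ protein encoded by Nfkbiz.

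Per the deposited notes the reads were quantified in an alignment-based and in an alignment-free way, and values are from the alignment-based tables unless the other is named. Expected counts summed to 12699813 in replicate 1, 18280033 in replicate 2 and 18087091 in replicate 3. A level of 3 counts, named the floor below, is 2.36e-05%, 1.64e-05% and 1.66e-05% of them. Of 7 macrophage markers, 6 were higher than the reference gene defined below and 1 (Fcgr1) passed in neither direction, and their summed level was 619, 576 and 489 TPM. Of 27 markers of other cell types, 26 were lower and 1 (Cd4) passed in neither direction. Their summed level was 5.26, 7.56 and 4.65 TPM, with 6 of 27 at 0 in every library, Cd3e and Ncr1 among them. All 6 dendritic cell markers were lower, at a summed 1.42, 1.19 and 1.10 TPM. The alignment-free table gave some markers of other cell types many more counts. Flt3 had an estimated 105, 128 and 102 there against 4, 5 and 4, and Klre1 had 81, 158 and 220 against 1, 1 and 0. Others stayed at 0 in every library of that table, Ly6g and Klrb1c among them. Fibroblast collagen genes set replicate 1 apart, with 0, 74 and 65 counts of Col1a1 and 0, 60 and 47 of Col1a2, although the alignment-free table has an estimated 130 counts of Col1a1 in replicate 1. The other listed fibroblast markers were near 0 in every library of the alignment-based table, with 0, 0 and 2 counts of Pdgfra and 0, 2 and 2 of Dcn. Of the cytokine genes, Lif and Osm had their lowest CPM in replicate 1. The part of these reads in the cytokine levels was not tested, and in bulk RNA fewer cells of a type and less RNA per cell cannot be told apart.

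Each level was set against a reference gene, the median of 8765 nuclear protein-coding genes with a mean of at least 1 TPM, which was 7.56, 6.64 and 6.56 TPM in replicates 1, 2 and 3. TPM is a count divided by transcript length and scaled to the same total in each library, so it can be compared between genes. None of the 8 cytokine genes was called higher than this reference. Il6, Lif, Il12a and Il27 were called lower, and Osm, Il12b, Il23a and Ebi3 passed in neither direction (limma's treat method against a 2-fold band, Benjamini-Hochberg adjusted p under 0.05 over 18415 genes). The counts at an unadjusted p under 0.05 were also 0 higher and 4 lower. Over all genes tested, 15.1% were called higher and 52.5% lower, so the 4 of 8 cytokine genes called lower are close to the background share. The median of the 8 log2 differences from the reference was -1.25, against -1.74 over all genes tested.

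**Figure D1:**
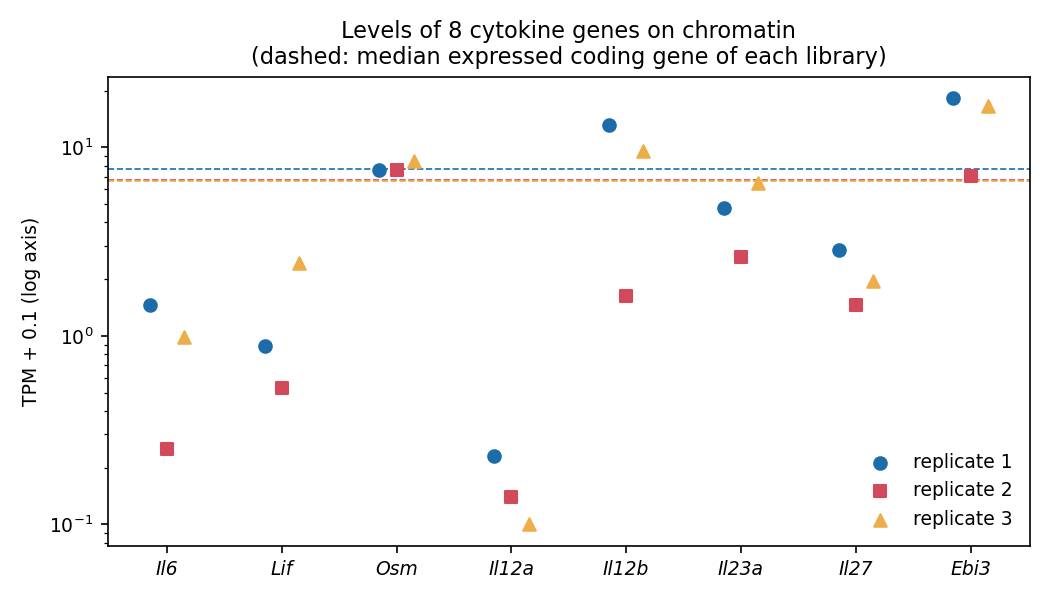
Level of each cytokine gene as TPM + 0.1 on a log axis, with 1 point for each of the 3 libraries and a dashed line at each library's reference gene. Ebi3, Il12b, Osm and Il23a lie nearest to the lines and Il12a lies lowest, and the replicate 2 point is far below the other two for Il6 and Il12b.

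Ordered by mean level the genes were Ebi3 at 13.8 ± 6.05 TPM, Il12b at 8.01 ± 5.90, Osm at 7.79 ± 0.514, Il23a at 4.52 ± 1.92, Il27 at 1.99 ± 0.716, Lif at 1.18 ± 1.01, Il6 at 0.80 ± 0.61 and Il12a at 0.0567 ± 0.0666 TPM (SD, n = 3 libraries each). The ranges over the libraries overlapped between neighbours in this order, except between Osm and Il23a and between Il6 and Il12a. The order also changed between libraries: Ebi3 was the highest member in replicates 1 and 3, and Osm in replicate 2.

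Among the IL-6 family ligands, Osm, which encodes oncostatin M, had the steadiest level. It had 7.48, 7.50 and 8.38 TPM in replicates 1, 2 and 3, from 213, 344 and 359 counts. All 3 libraries were thus close together and close to the reference gene, at a log2 difference of 0.17 ± 0.14 (SE), with limma's adjusted p = 1. Osm lies on chromosome 11 (mm10, 4236420 to 4241026, plus strand), and Lif follows 16530 bases downstream on the same strand.

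Lif, which encodes leukemia inhibitory factor (chromosome 11, 4257557 to 4272514), had 0.78, 0.43 and 2.33 TPM from 20, 35 and 93 counts. Replicate 3 was the highest in both units, while the lowest was replicate 2 by TPM and replicate 1 by counts. Its log2 difference from the reference was -2.75 ± 0.46 (limma's adjusted p = 0.00927), below it in 3 of 3 libraries. This call was not made in the alignment-free table, where the adjusted p from limma was 0.0635, nor against reference genes from 0.1 TPM (0.142) or with a 4-fold band (0.16). A part of the TPM rested on very few reads: the 390-base transcript Lif-203, annotated as processed transcript, took 51.3%, 0% and 49.4% of the gene's TPM on 1, 0 and 4 counts. The coding transcript Lif-201 alone had 0.38, 0.43 and 1.18 TPM. The ratio of Osm to Lif, neighbours on the chromosome, was 9.59, 17.4 and 3.60 in TPM.

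Il6, which encodes the cytokine IL-6 (chromosome 5, 30013114 to 30019981, plus strand), had 1.36, 0.15 and 0.89 TPM from 40, 7 and 40 counts. Replicates 1 and 3 lay close together and replicate 2 stood far below them. The exact Poisson intervals of the counts, which cover counting error only, were 28.6 to 54.5 in replicates 1 and 3 and 2.81 to 14.4 in replicate 2. Il6 was below the reference in 3 of 3 libraries, by a log2 difference of -3.30 ± 0.50 (SE; limma's adjusted p = 0.00487). With a 4-fold band in place of the 2-fold band, limma's adjusted p was 0.0526.

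All Il6 counts were assigned to 1 transcript that keeps an intron of the standard mRNA. In the alignment-based table Il6-203 took 40 of 40, 7 of 7 and 40 of 40 counts, with exact binomial 95% intervals from 91.2%, 59% and 91.2% up to 100%. Il6-203 is annotated as protein coding, but its last exon includes all 1226 bases of intron 4 of Il6-201 (chr5:30018155-30019380), and its coding sequence ends inside that intron, at 30018310, whereas that of Il6-201 ends at 30019545. The 30 bases across each end of the intron, from the M21 transcript sequences, are shown because a read over either one comes from RNA that still holds the intron; capitals mark the first and last pair of intron bases.
Il6 intron 4 start (chr5:30018140-30018169, plus strand): atcttcaaccaagagGTgagtgcttcccca
Il6 intron 4 end (chr5:30019366-30019395, plus strand): tttttcctcctttAGgtaaaagatttacat

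In the alignment-free table Il6-203 took 48.2%, 94.3% and 98.9% of the gene's TPM. The only library with much of another isoform was replicate 1, where Il6-202 took 47.9% on an estimated 9.10 counts. By estimated counts the share of Il6-203 in that table was 80.6%, 98.7% and 99.8%, on 55, 9 and 61 counts. Like Il6-201, Il6-202 keeps no intron of another annotated Il6 transcript, so it is also a spliced form. Il6-201 itself had an estimated 1.57, 0 and 0 counts in the alignment-free table. Both had 0 counts in every library of the alignment-based table. Since Il6-203 is 2343 bases long and Il6-201 is 1141, a count assigned to Il6-203 gives a lower TPM than the same count on Il6-201.

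The IL-12 family chains ran from the highest level among the 8 genes to the lowest. Ebi3 (chromosome 17, 55952640 to 55957022, plus strand), the chain shared by IL-27 and IL-35, had 18.15, 6.91 and 16.42 TPM from 236.24, 143.3 and 320.93 expected counts. Replicates 1 and 3 were similar and replicate 2 was the lowest, although still at the reference gene's level. Over the libraries it was 0.87 ± 0.28 above the reference on the log2 scale (limma's adjusted p = 0.841). It was called higher without a band (limma's adjusted p = 0.0267) and against reference genes from 0.1 TPM (0.0159). The antisense gene Gm16712 overlaps 2252 bases of Ebi3 on the opposite strand and had 32.95, 13.23 and 29.41 TPM, also lowest in replicate 2. That overlap is of the whole gene spans, introns included. Whether counting used the strand is not stated, so reads in stretches that both genes share may have been assigned to either. How many such reads there were was not measured, and the counts of both genes are uncertain.

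Il27 (chromosome 7, 126589010 to 126594941, minus strand), the p28 partner of EBI3, had 2.77, 1.36 and 1.85 TPM from 31, 24 and 31 counts. These counts were alike, and the level was below the reference in 3 of 3 libraries, by a log2 difference of -1.80 ± 0.22 (limma's adjusted p = 0.011). In the alignment-free table, however, Il27 had 13.1, 4.18 and 6.94 TPM, at the reference gene's level (log2 difference 0.02, limma's adjusted p = 1). The call was also lost against reference genes from 0.1 TPM (-0.74, limma's adjusted p = 1) and with the 4-fold band (adjusted p = 1). The ratio of Ebi3 to Il27, the chains of IL-27, was 6.55, 5.08 and 8.88 in the alignment-based table and 1.92, 1.57 and 2.49 in the alignment-free one. Ebi3 was the higher of the pair in all 3 libraries in both tables. The last exon of Il27 shares 103 bases with Apobr on the other strand, a gene with 1805, 2514 and 3471 expected counts.

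Il12b (chromosome 11, 44400063 to 44414033, plus strand), the p40 chain, had 13.05, 1.52 and 9.45 TPM from 298, 56 and 327 counts. It was above the reference gene in replicates 1 and 3 and below it in replicate 2. The resulting log2 difference of -0.25 ± 0.57 did not pass (limma's adjusted p = 1). Without replicate 2 the difference was 0.66, and limma's adjusted p was again 1.

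Il23a (chromosome 10, 128296139 to 128298752, minus strand), the p19 chain that joins p40 in IL-23, had 4.65, 2.53 and 6.37 TPM from 81, 74 and 163 counts. Every library lay below its reference gene, and the log2 difference of -0.70 ± 0.27 did not pass (limma's adjusted p = 1). Against reference genes from 5 TPM it was called lower (-1.89, limma's adjusted p = 0.0137). The ratio of Il12b to Il23a was 2.81, 0.601 and 1.48, so the p40 transcript was the higher of the 2 in replicates 1 and 3 and the lower in replicate 2.

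Il12a (chromosome 3, 68690644 to 68698547, plus strand), the p35 chain that completes IL-12, was at or under the floor. It had 1, 1 and 0 counts, or 0.13, 0.04 and 0 TPM, and both counts were assigned to transcripts annotated as retained intron. It was called lower (limma's adjusted p = 0.000296), but no fold is given, because the pseudocount would set its size. At this depth a level of Il12a was not detectable beyond single reads.

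The other genes of the pathways differed by role, in lists chosen with earlier results of these data known. Of 5 other ligand genes of the IL-6 family, 4 were lower and 1 passed in neither direction, with a median log2 difference of -5.85. That median is Il31, with 1 count in all, so the pseudocount sets its size, at -8.38 with a pseudocount of 0.01 and -2.95 with 1. With a pseudocount of 0.01 Il11 and Ctf1 were not called (limma's adjusted p = 0.0971 each). Clcf1, a gp130 ligand, was the exception, with 9.80, 5.34 and 12.37 TPM, again with replicate 2 lowest. Cntf, the neuronal survival factor, was the next highest at 0.723 ± 0.398 TPM (SD, n = 3). Il11 and Ctf1 were listed at 0 in every library of the alignment-based table, although Il11 had 56 estimated counts in the alignment-free table.

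Of 11 receptor genes, 1 was higher, 8 were lower and 2 passed in neither direction, with a median log2 difference of -3.51. The higher one was Il6st, which encodes gp130, with 21.51, 20.19 and 16.54 TPM in replicates 1, 2 and 3. It lay 1.47 ± 0.12 above the reference on the log2 scale, in 3 of 3 libraries (limma's adjusted p = 0.00929). The call was not made against reference genes from 5 TPM (log2 difference 0.28, limma's adjusted p = 1) or with the 4-fold band (adjusted p = 1). Il6ra, the IL-6 binding chain, had 6.90, 6.39 and 4.43 TPM and Il11ra1, the IL-11 binding chain, 5.94, 10.14 and 6.29 TPM, both near the reference. Lifr, the LIF receptor chain, had 2.85, 1.22 and 1.36 TPM and was lower, by a log2 difference of -1.97 (limma's adjusted p = 0.00915). This call was lost in the alignment-free table (-1.15, limma's adjusted p = 0.328), against reference genes from 0.1 TPM (-0.91, adjusted p = 0.826) and with the 4-fold band (adjusted p = 0.944). Against reference genes from 5 TPM, Il6ra was called lower (-1.44, limma's adjusted p = 0.0277).

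Of the receptor chains for IL-12, IL-23, IL-27 and oncostatin M, Il12rb1, Il12rb2, Il23r, Il27ra and Osmr were called lower in the alignment-based table. This does not cover gp130, through which oncostatin M also signals and whose gene Il6st was called higher. Il12rb2 had 2.47, 1.86 and 2.28 TPM, and Il12rb1, which is shared by the IL-12 and IL-23 receptors, had 0.74, 0.46 and 0.39 TPM. Il12rb2 lost its call with a pseudocount of 1 (limma's adjusted p = 0.0512), against reference genes from 0.1 TPM (log2 difference -0.55, adjusted p = 1) and with the 4-fold band (adjusted p = 1). Il12rb1 lost its call in the alignment-free table (-1.68, limma's adjusted p = 0.0565). Osmr had 0, 2 and 2 counts, Il23r 2, 1 and 0, and Il27ra 1, 4 and 2, all near the floor in the alignment-based table. The alignment-free table gave very different totals over the libraries for them: 776 against 7 counts for Il27ra, 229 against 4 for Osmr, 275 against 37 for Il12rb1 and 40 against 3 for Il23r. In that table the log2 difference of Il27ra was -0.85 and did not pass (limma's adjusted p = 1).

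Most signalling and regulator genes were above the reference. Of 7 signalling genes, 4 were higher (Jak1, Tyk2, Stat3 and Socs3), 2 were lower (Stat4 and Socs1) and 1 (Jak2) passed in neither direction, with a median log2 difference of 2.19. Stat3, the main transcription factor downstream of gp130, had 92.87, 89.57 and 65.13 TPM, and Socs3, its feedback inhibitor, had 106.31, 54.81 and 82.29 TPM. Both exceeded every cytokine gene in every library. Socs1, another feedback inhibitor of the pathway, had the lowest mean of the list, with 1.10, 0.96 and 0.95 TPM, although Stat4 was below it in replicate 2 at 0.79 TPM. The calls of Tyk2 (limma's adjusted p = 0.614 against reference genes from 5 TPM and 0.16 with the 4-fold band) and Stat4 (0.343 against those from 0.1 TPM and 0.357 with the 4-fold band) were lost in those settings. In the alignment-free table Jak2 was called higher (log2 difference 1.61, limma's adjusted p = 0.00883).

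Of 8 regulators of cytokine genes, 5 were higher (Nfkbiz, Rel, Atf3, Irf1 and Zc3h12a), 1 (Cebpd) was lower and 2 (Cebpb and Irf8) passed in neither direction. Irf1, an interferon regulatory factor, had 788.02, 445.69 and 432.08 TPM, and Nfkbiz had 502.03, 300.12 and 405.9 TPM. Cebpd, a C/EBP family factor, had 0.82, 0.49 and 0.50 TPM. Zc3h12a lost its call against reference genes from 5 TPM (limma's adjusted p = 0.999) and with the 4-fold band (0.758), and Irf8 was called higher in the alignment-free table (0.0104). Together the 31 pathway genes gave 10 higher, 15 lower and 6 in neither direction, with a median log2 difference of -0.25, beside the 15.1% and 52.5% called over all genes.

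**Figure D2:**
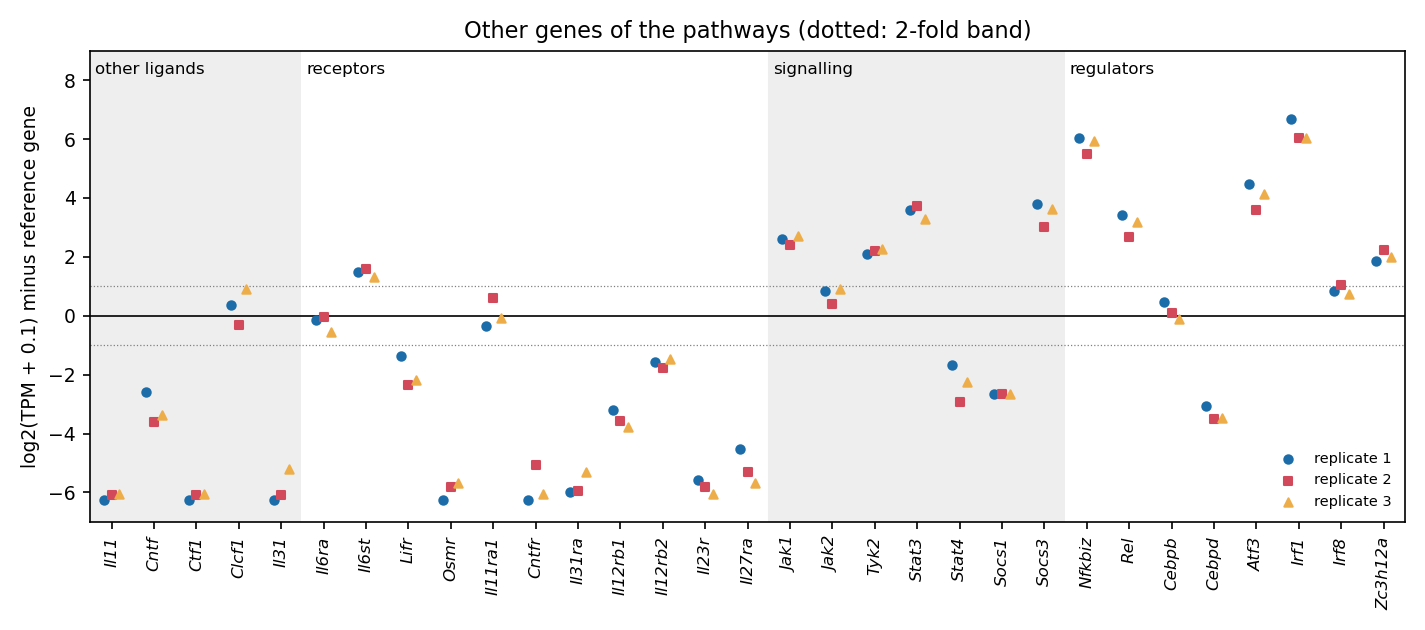
Log2(TPM + 0.1) minus the library's reference gene for the 31 other pathway genes, grouped by role, with 1 point for each of the 3 libraries and dotted lines at the 2-fold band. Most signalling and regulator genes lie above the band and most ligand and receptor genes below it, and Il6st is the receptor gene that lies above it.

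The replicates differed far more in some cytokine genes than in others. As CPM, which are counts scaled to the library size after TMM normalisation, Il12b had 22.0, 3.16 and 19.0 in replicates 1, 2 and 3, Il6 had 2.95, 0.395 and 2.33, and Ebi3 had 17.4, 8.06 and 18.7. These 3 genes were at least 2-fold lower in replicate 2 than in both other libraries. They were 3 of the 7 members with a mean count of at least 10 (Il12a was below it), beside 1.93% of all 13818 genes with such a count. That background was added after the data were seen. With the filter that demands a minimum in each library, which Il6 and Il12a do not pass, 2 of 6 members were 2-fold lower. The background with that filter is 1.38% of 12931 genes.

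The exact binomial intervals, which cover counting error only, excluded a ratio of 1 for these 3 genes. Il12b was 6.96-fold higher in replicate 1 than in replicate 2 (95% interval 5.22 to 9.44) and 6.03-fold higher in replicate 3 than in replicate 2 (4.53 to 8.15). Il6 was 7.48-fold higher in replicate 1 (3.31 to 19.8) and 5.90-fold in replicate 3 (2.61 to 15.6) than in replicate 2. Ebi3 showed smaller ratios to replicate 2, of 2.16 (1.75 to 2.68) in replicate 1 and 2.32 (1.90 to 2.84) in replicate 3. With 1 library for each replicate there is no test of these differences.

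The remaining members varied less or in another order. Il23a had 5.98, 4.17 and 9.49 CPM, and Il27 had 2.29, 1.35 and 1.80, so both were also lowest in replicate 2. For Il23a the ratios to replicate 2 were 1.43 (1.03 to 1.99) for replicate 1 and 2.27 (1.72 to 3.03) for replicate 3. Both of these counting intervals excluded 1. For Il27 the counting intervals of the ratios to replicate 2 included 1 (0.960 to 3.01 for replicate 1 and 0.757 to 2.37 for replicate 3). Lif had 1.48, 1.97 and 5.41 CPM and Osm 15.7, 19.4 and 20.9, both lowest in replicate 1 and highest in replicate 3. Replicate 3 was 2.74-fold higher than replicate 2 for Lif (1.84 to 4.17) and 1.08-fold for Osm (0.927 to 1.25), an interval that includes 1. The ratio of replicate 1 to replicate 2 was 0.810 for Osm (0.680 to 0.964), which excludes 1, and 0.748 for Lif (0.409 to 1.33). That of replicate 1 to replicate 3 was 0.752 for Osm (0.632 to 0.894) and 0.273 for Lif (0.159 to 0.445). In all, 5 of 7 members were lowest in replicate 2, beside 38.2% of genes with a mean count of at least 10. Of the members that pass the stricter filter 4 of 6 were, beside 38.3% of the genes that pass it.

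**Figure D3:**
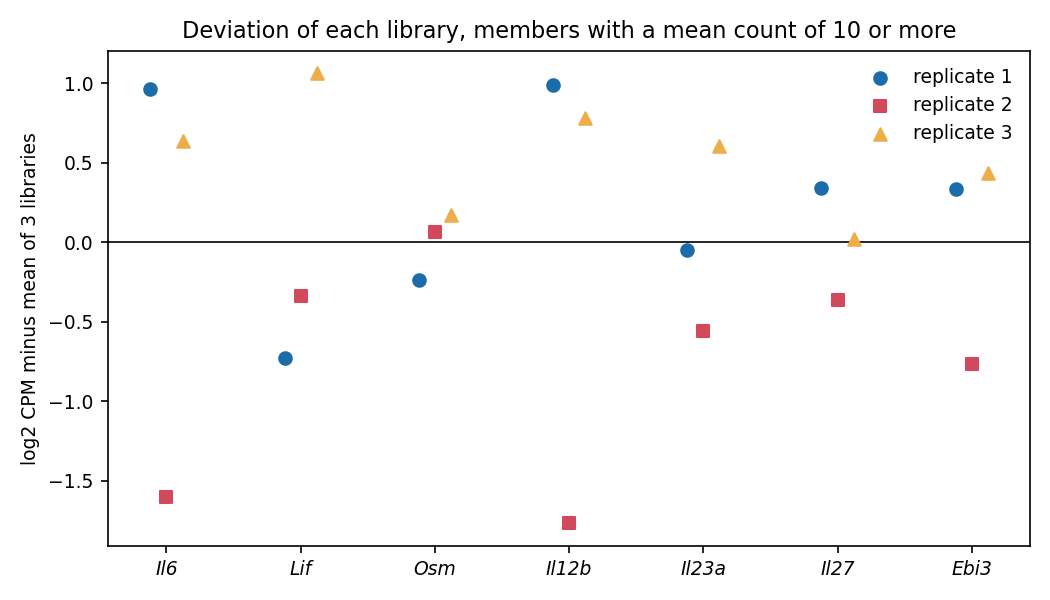
Deviation of each library's log2 CPM from the mean of the 3 libraries, for the 7 cytokine genes with a mean count of at least 10. Replicate 2 lies lowest for 5 genes, farthest for Il12b and Il6, while Lif and Osm are lowest in replicate 1.

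The SD of log2 CPM over the 3 libraries was 1.53 for Il12b, 1.40 for Il6, 0.94 for Lif, 0.67 for Ebi3, 0.58 for Il23a, 0.35 for Il27 and 0.21 for Osm. Genes whose mean count was within 2-fold of the member's had a median SD of 0.255 (3491 genes, Il12b), 0.359 (3765, Il6), 0.32 (3797, Lif), 0.254 (3482, Ebi3) and 0.282 (3804, Il23a). For Il27 and Osm the medians were 0.359 and 0.248, close to their own SD. The median over all genes passing the stricter filter was 0.272, with a 95th percentile of 0.653. Without replicate 2 the SD fell to 0.15 for Il12b, 0.24 for Il6 and 0.07 for Ebi3.

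Other measures of replicate 2 are given for comparison. It had the smallest RNA input of the 3 libraries, 250 ng, and 1 library for each input means that input and replicate cannot be told apart. Its total count was the largest of the 3. None of the 7 macrophage markers was lowest in it, while 4 of 8 regulators, 3 of 7 signalling genes and 2 of 6 receptor genes were, none of them 2-fold lower. The shares of regulators, signalling genes and receptors are near the 38.2% of all genes with a mean count of at least 10. Nfkbiz was 1.23-fold higher in replicate 1 and 1.27-fold higher in replicate 3 than in replicate 2. Over the 8 regulators the ratio to replicate 2 ran from 0.818 (Irf8) to 1.69 (Atf3) for replicate 1. For replicate 3 it ran from 0.825 (Irf8) to 1.36 (Rel). Clcf1, the other ligand at a similar level, was 2.07-fold (1.76 to 2.43) higher in replicate 1 and 2.33-fold (2.01 to 2.71) higher in replicate 3 than in replicate 2.

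Il12b had the largest spread, so the protein-coding genes most like it were sought by the Euclidean distance of the 3 deviations, over 10193 genes. The 5 nearest were Ifit1 (distance 0.274), Gm45062 (0.331), Art3 (0.389), Nrg1 (0.492) and Cxcl10 (0.528), and only 4 genes lay within 0.5. Ifit1, an interferon-induced gene, had 12.98, 1.94 and 9.61 TPM, and Cxcl10, a chemokine gene, had 82.26, 10.19 and 37.78 TPM. Within the family Il6 ran closest to Il12b: their TPM ratio was 9.60, 10.1 and 10.6 in the alignment-based table, although it was 10.1, 19.0 and 16.2 in the alignment-free one. Likeness over 3 libraries is a description of these libraries.

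The start regions of the 3 genes that were 2-fold lower in replicate 2 are shown to set their letters side by side. They are from RefSeq (GRCm38.p6), all on the plus strand, from 250 bases before to 50 after the annotated start. Capitals mark matches, on either strand, to the κB consensus of NF-κB, to the AP-1 motif TGANTCA, to the C/EBP motif TTNNGNAA, to TATAAA or to the interferon-stimulated response element (ISRE).
Il6 (chr5:30012864-30013163): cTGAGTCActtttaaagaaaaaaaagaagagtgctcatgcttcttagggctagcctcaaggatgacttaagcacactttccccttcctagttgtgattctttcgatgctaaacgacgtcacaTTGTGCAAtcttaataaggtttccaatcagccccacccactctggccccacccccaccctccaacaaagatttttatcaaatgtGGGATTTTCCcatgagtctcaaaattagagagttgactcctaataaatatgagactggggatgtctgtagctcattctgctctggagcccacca
Il12b (chr11:44399813-44400112): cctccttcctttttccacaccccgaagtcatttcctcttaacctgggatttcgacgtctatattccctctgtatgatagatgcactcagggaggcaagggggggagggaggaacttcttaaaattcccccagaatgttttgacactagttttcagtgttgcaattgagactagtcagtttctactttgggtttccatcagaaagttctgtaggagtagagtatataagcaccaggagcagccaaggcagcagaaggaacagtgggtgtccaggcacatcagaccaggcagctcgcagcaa
Ebi3 (chr17:55952373-55952672): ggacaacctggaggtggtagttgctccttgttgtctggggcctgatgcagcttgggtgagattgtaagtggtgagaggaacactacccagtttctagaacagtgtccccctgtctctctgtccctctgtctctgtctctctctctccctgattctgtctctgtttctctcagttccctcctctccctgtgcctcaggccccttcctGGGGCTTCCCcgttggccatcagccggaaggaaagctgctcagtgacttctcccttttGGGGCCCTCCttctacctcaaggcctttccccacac

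The Il6 window held a κB match with its first base at -44 from the start, a C/EBP match at -128 and an AP-1 match at -249. The Ebi3 window held κB matches at -44 and 15, and the Il12b window held no match to any of the 5 motifs. Among 32851 windows of the same length, 8.46% held a κB match, 7.81% an AP-1 match, 40.7% a C/EBP match, 13.6% TATAAA and 3.44% the ISRE. The windows of Lif, with a κB match at -178 and an AP-1 match at -228, and of Il12a, with none, are in the same table, and Osm, Il23a and Il27 were not matched there. A match is only a run of letters, and no match says only that these letters are not in this window.

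Isoform shares were compared for the members with several transcripts. Of Il23a the transcript Il23a-202, annotated as retained intron, took 30.5%, 46.0% and 21.8% of the TPM, or 32.8% ± 12.3 (SD, n = 3 libraries). It keeps intron 1, of 219 bases (chr10:128297592-128297810, minus strand), and its first exon starts 668 bases farther upstream. A background was taken from 5826 genes with a mean of at least 1 TPM and both a retained-intron and a coding transcript. Their shares, averaged over the libraries, had a median of 40.2% (quartiles 23.5% and 56.9%). The mean share of Il23a-202, 32.8%, lay inside these quartiles, and no quartiles were taken for single libraries. By counts rounded to whole reads the share was 37%, 52.7% and 27%, with exact 95% intervals of 26.6% to 48.5%, 40.7% to 64.4% and 20.3% to 34.5%.

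The share was highest in replicate 2. In the same table the spliced form Il23a-201 had 3.23, 1.36 and 4.98 TPM, while Il23a-202 had 1.42, 1.16 and 1.39 TPM. The spliced form was lowest in replicate 2, and the retained form was nearly level over the libraries. In the alignment-free table the retained-intron share was larger, at 43.2%, 74.0% and 47.9%, and again highest in replicate 2. The quartiles over the same genes in that table, again of shares averaged over the libraries, were 24.6% and 59.3%. The mean share of Il23a-202 there, 55%, lay inside them. The 2 forms differ in more than the retained intron, for example in the 668 bases upstream that only Il23a-202 has. Which of these parts the reads came from was not tested. Both ends of the retained intron are given in the gene's direction, from the M21 transcript Il23a-202, which keeps it. Capitals mark the first and last pair of intron bases.
Il23a intron 1 start (chr10:128297796-128297825, minus strand): ccagcgggacatatgGTaagtgtcagctcc
Il23a intron 1 end (chr10:128297577-128297606, minus strand): ctccctccattacAGaatctactaagagaa

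Il12b was read as the standard form in 1 table and as a mixture in the other. Il12b-202, which extends exon 1 by 106 bases past the splice site used by Il12b-201 (chr11:44400119-44400224), took 2.84%, 0% and 3.92% of the TPM in the alignment-based table. In the alignment-free table it took 30.2%, 15.1% and 33.2%. By counts these were 9 of 298, 0 of 56 and 13 of 327 in the first table, where 0 of 56 allows up to 6.38% (exact 95% interval), and 227 of 728, 22 of 140 and 268 of 783 in the second. The 30 bases across the splice site that Il12b-202 reads through are shown, with the first pair of intron bases in capitals.
Il12b intron 1 start (chr11:44400104-44400133, plus strand): tcgcagcaaagcaagGTaagttctctcctc

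Among the remaining members Osm-202, a processed transcript, reached at most 1.33% of the TPM of Osm, and Il27 and Ebi3 have 1 annotated transcript each.

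**Figure D4:**
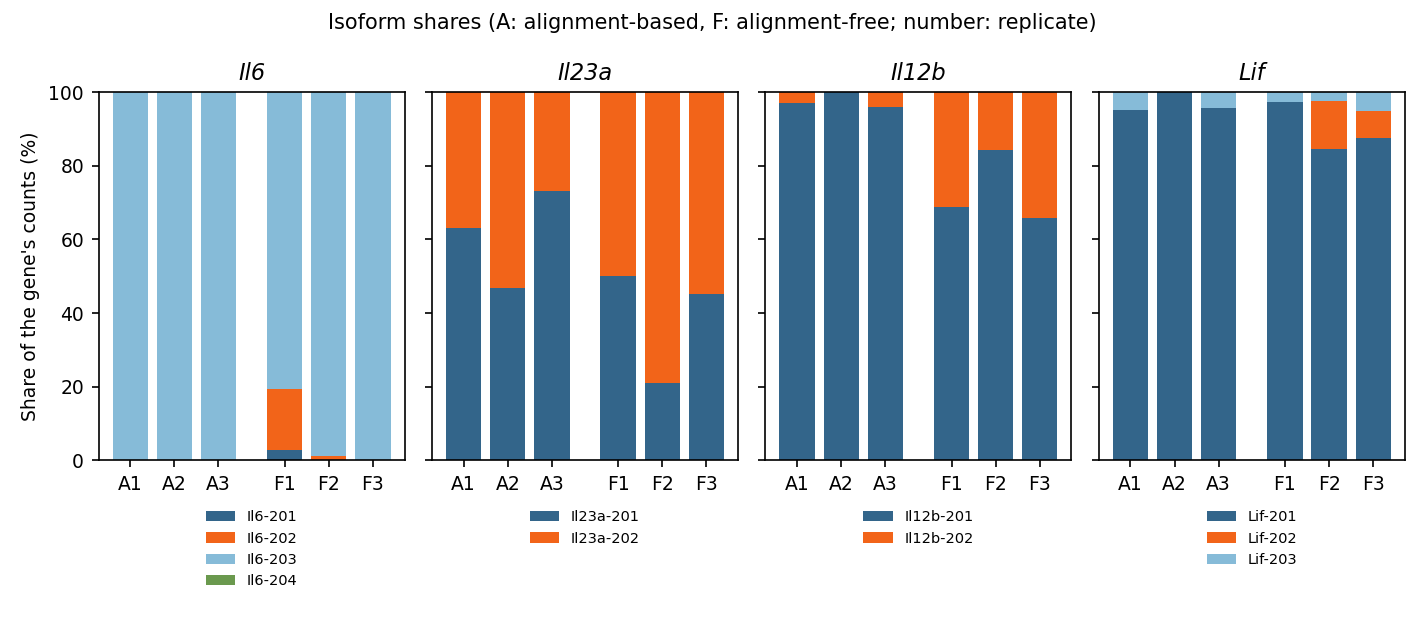
Share of each gene's counts assigned to its annotated transcripts, for Il6, Il23a, Il12b and Lif, with 1 bar for each replicate in the alignment-based table (A1 to A3) and the alignment-free table (F1 to F3). Il6-203 fills the Il6 bars apart from F1, Il23a-202 is largest in replicate 2 in both tables, and Il12b-202 is visible mainly in the alignment-free bars.

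The tables also disagreed on how many reads the cytokine genes had. Over 10671 protein-coding genes with a mean count of at least 10, the alignment-free total over the libraries was a median of 1.65 times the alignment-based one (5th to 95th percentile 1.23 to 6.07). Il6 at 1.44, Osm at 1.45 and Ebi3 at 1.59 were near that median, and Il12b at 2.42, Il23a at 2.62 and Lif at 2.91 were above it. Il27 stood highest among the members, at 5.50 (473 against 86 counts), a ratio reached by 5.77% of those genes. It was of similar size in every library, at 5.77, 5.25 and 5.42.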

How the data were processed

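Each of 3 libraries (1 group, replicate numbers from the labels) had gene and transcript tables with expected counts, TPM and FPKM deposited by the authors, and another transcript table with TPM and estimated counts. Per the deposited notes, values refer to mm10 and GENCODE M21, and the tables were derived from transcriptome alignments (alignment-based) or directly from reads (alignment-free). Neither the programs nor the strand setting is given in the sources used here. Expected counts are not whole and were rounded for edgeR.

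Levels were tested as log2(TPM + 0.1) minus the reference gene with limma 3.58.1 (treat, 2-fold band, trended variance) over listed genes and those averaging 0.1 TPM or more. P-values measure only the spread between these libraries, which share 1 donor entry. Replicates were compared on log2 CPM (edgeR 4.0.16, TMM, prior count 2), with 95% exact intervals that cover counting error only. Alternatives used FPKM, DESeq2 1.42.0 size factors, other filters, pseudocounts, bands and references, and left out each library. Named were all members, the 2 highest and the lowest gene of each list, and the receptors of the members. Genes named beyond this rule (Jak1, Tyk2, Rel and the like) complete a list's count or were chosen after their values were seen. Members and lists were chosen with earlier results of these data known. Some listed genes are not reported here.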

Additional observations from a re-analysis of the deposited data

How the results depend on the processing

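No paired analysis was possible because the series has 1 group. Leaving out each library kept 0 members higher and 4 lower, and 10 pathway genes higher and 15 lower. Of the 4 lower calls among the members, 2 remained in number with a filter at a mean of 1 TPM (which leaves Il6 and Il12a untested), 2 with reference genes from 0.1 TPM (with 1 higher) and 2 in the alignment-free table, and 1 with a 4-fold band. Without a band 1 member was higher, and with reference genes from 5 TPM 5 members were lower, with Il23a added (-1.89). Of the pathway genes 4 were lower with the filter at 1 TPM, which tests fewer genes. Il27 reversed in the alignment-free table, at 0.02 on the log2 scale. With reference genes from 0.1 TPM, Il12b (0.81) and Il23a (0.37) lay above the reference, and with those from 5 TPM, Ebi3 (-0.32) and Osm (-1.02) lay below it, so the side on which these uncalled genes lie depends on that choice.

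Of the replicate differences, 5 members lowest in replicate 2 and 3 at least 2-fold lower were counted under every scaling, prior count and table tried. Every setting counted the members with a mean count of at least 10, so the filter could not change which were counted. Among the 6 members that pass the stricter filter, 4 were lowest in replicate 2 and 2 were at least 2-fold lower. A setting without TMM shifts the median gene by 0.15 in replicate 1 against replicate 2. Over the leave-one-out settings the count of 2-fold lower members was 3 to 5, that of members lowest in replicate 2 was 5 to 7, and the median SD of 0.67 was 0.24 to 0.85, the lowest without replicate 2. With replicate 1 or 3 left out, replicate 2 is compared with 1 library only, so both counts are easier to reach. No share of all genes was taken in those settings. Mean isoform shares moved in the alignment-free table to 80.5% (Il6-203), 55% (Il23a-202) and 26.2% (Il12b-202), and by counts to 3.1% (Lif-203). Over the leave-one-out settings they were 100% to 100%, 26.2% to 38.3%, 1.42% to 3.38% and, for Lif-203, 24.7% to 50.3%. The causes were not tested. Depth limits Il12a, with 2 counts in all, and the Il6 value of replicate 2, with 7. An alternative added after seeing the data, genes with a mean count of at least 10, gave the 1.93% background.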
